A study of Homo sapiens with 15 samples.

Results

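The HES and HEY genes are the set of Notch effectors examined here, namely HES1, HES2, HES4, HES5, HES6, HES7, HEY1, HEY2 and HEYL. Members were taken by the gene name that the array gives a probe, which gave 9 of 30484 gene names and 12 of 41000 probes. The set was chosen by the measured ratio and channel signals of HES2 on the miR-766 arrays, so all values of the members on the miR-766 arrays are a description without a test. The samples were A549 cells, an established human lung adenocarcinoma line, transfected with 20 nM of a synthetic miRNA precursor or of an LNA antagomir against the same miRNA, and RNA was extracted at 24 h. The miRNAs were miR-766, miR-629*, miR-574-3p, miR-565 and miR-181d. Every one had 3 dual-color arrays of overexpressing cells (Cy5) against antagomir cells (Cy3), which makes 15 arrays without a dye swap. No untreated cells are on these arrays, and the labels do not say whether the replicates are separate transfections, so p-values measure the spread between these arrays only.

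Notch is a receptor that is cut when it binds a Jagged or Delta ligand on a neighboring cell. Its inner part then joins the DNA-binding protein RBPJ and the coactivator Mastermind in the nucleus and switches on a small group of genes, of which the HES and HEY genes are the best known. They encode basic helix-loop-helix repressors that sit on promoters of differentiation genes and recruit corepressors of the TLE (Groucho) family. In the lung epithelium, HES1 is known for holding back the neuroendocrine fate.

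In these data, the probe of HES2 was brighter in the cells with the miR-766 antagomir than in any other sample. For every miRNA, the probes of HES1 were on average somewhat brighter in the overexpressing cells, which were always in Cy5. HES4, HES6 and HES7 lay slightly on the other side on most arrays. HEY1 and HEYL lay slightly on the side of HES1 on most arrays, and HEY2 showed differences of either sign. HES2 aside, 0 member probes passed the test of a difference between 1 miRNA and the others. The quantities are the processed signal of a spot, which is a brightness without a unit and cannot be compared between probes, and the log2 ratio of the signal in overexpressing cells over that in antagomir cells.

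The probes that carry these results are 60 bases long. The HES2 probe, A_23_P304716, lies at chr1:6398324-6398383 of NCBI36 on the minus strand and has a stop codon in all 3 reading frames. HES1 has 3 probes at chr3:195336738-195336797, chr3:195336970-195337157 and chr3:195338870-195338929 on the plus strand. The second of these, A_23_P6596, covers 188 bases of the genome and therefore crosses a splice junction, as does A_23_P168351 of HEY2, which covers 187 bases at chr6:126114708-126114894. Both read the stretch that encodes the basic helix-loop-helix domain, and they are shown because they let the kinship of the family be seen in the array itself. Capitals mark the bases that are identical in their best ungapped alignment.
HES1 A_23_P6596: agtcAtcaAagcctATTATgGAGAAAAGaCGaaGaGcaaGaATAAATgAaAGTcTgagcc
HEY2 A_23_P168351: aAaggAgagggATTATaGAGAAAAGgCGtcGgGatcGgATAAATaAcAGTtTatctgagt
Of the 57 aligned bases, 31 (54.4%) were identical, and the longest identical run was 8 bases. The other HEY2 probe lies at chr6:126123697-126123756, and the single probes of HES4 (A_23_P149448), HES5 (A_32_P234184), HES6 (A_23_P131202), HES7 (A_23_P107394) and HEYL (A_23_P430658) lie at chr1:924504-924563, chr1:2450050-2450109, chr2:238812889-238812948, chr17:7965812-7965871 and chr1:39862428-39862487. The probes of HES4 and HES7 have 80.0% G and C each, the most of the set.

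RBPJ is known to bind sites with the core GTGGGAA. This core was searched on both strands (TTCCCAC on the gene's own strand is the same core on the other strand) in RefSeq promoters of GRCh38.p14, from 250 bases before to 50 bases after each gene's start. It was found in 2194 of 35116 promoters (6.25%) and in 5 of the 8 member promoters that the table holds. HES1, HES4 and HES5 carry it on the gene's strand at 85, 77 and 81 bases before the start, and HEYL carries it on the opposite strand 178 bases before the start. HEY2 has a match on each strand, at 213 and 4 bases before the start, and HES5 has a further one at 224. The stretches around 5 of these matches are shown with the core in capitals, to compare the genes whose names are used below.
HES1, chr3:194136047-194136085, plus strand: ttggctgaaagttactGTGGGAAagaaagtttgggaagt
HES4, chr1:1000152-1000190, minus strand: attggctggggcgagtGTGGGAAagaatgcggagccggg
HES5, chr1:2530322-2530360, minus strand: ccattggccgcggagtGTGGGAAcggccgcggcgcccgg
HEY2, chr6:125749403-125749441, plus strand: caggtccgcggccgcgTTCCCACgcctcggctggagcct
HEYL, chr1:39639799-39639837, minus strand: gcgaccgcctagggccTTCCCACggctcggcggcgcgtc
The windows of HES2, HES6 and HES7 do not hold these letters, which says nothing about RBPJ at these genes.

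Some facts of the arrays bear on all values below. Well above background were 68.8% to 73.0% of the probes of an array for antagomir RNA and 68.1% to 75.5% for overexpressing RNA. The epithelial keratins KRT8, KRT18 and KRT19, the cadherin CDH1 and TACSTD1 were well above background on 15 of 15 arrays, and the blood, endothelial and T cell markers PTPRC, PECAM1 and CD3D on 0, and the fibroblast marker DCN on 1 in the antagomir channel. The neuroendocrine markers CHGA and SYP were well above background on 15 and 4 arrays in the antagomir channel and on 15 and 11 in the overexpressing channel. The lung factor TITF1 was well above background on 15 of 15 arrays in both channels, and SFTPB on 5 in the antagomir and 9 in the overexpressing channel. Replicate 1 of miR-565 stood apart. The SD of its log2 ratios over probes was 0.94, against 0.29 to 0.53 on the other arrays, and it had the highest overexpressing signal of all arrays at 11 of the 12 member probes and the highest log2 ratio at each of the 10 that were tested. The arrays lay on 4 slides, and slide 4 held the 3 miR-766 arrays and no others, so that slide and miRNA cannot be told apart for miR-766. Slide and miRNA were partly confounded elsewhere too. Slide 1 held the 3 miR-181d arrays and replicate 1 of miR-565, and slide 3 the 3 miR-629* arrays and 1 of miR-574-3p.

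HES2, a little studied HES repressor, has a single probe on the array. In the antagomir channel of the miR-766 arrays its processed signal was 23.3, 36.5 and 40.9. Elsewhere, on 12 arrays, the antagomir signal ranged from 7.23 to 10.6 with a median of 9.47. The lowest miR-766 value thus exceeded the highest of the other antagomir values. By miRNA, the antagomir signal was 33.6 ± 9.16 for miR-766, 10.3 ± 0.303 for miR-574-3p, 8.89 ± 1.39 for miR-181d, 8.75 ± 1.54 for miR-629* and 8.19 ± 1.14 for miR-565 (SD, n = 3 each). The values of the last 3 overlapped one another, while those of miR-574-3p lay above miR-181d and miR-565 and overlapped with miR-629*.

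The overexpressing channel showed no such pattern for HES2. On the miR-766 arrays the signal of cells overexpressing miR-766 was 1.24, 5.18 and 4.80, and on the other 12 arrays it ranged from 1.41 to 10.03 with a median of 5.14. These values overlapped, and none of the 15 was well above background. In the antagomir channel, HES2 was well above background on 3 of 3 miR-766 arrays, on all 3 arrays of miR-574-3p and of miR-629*, and on 0 of 3 for miR-181d and miR-565. HES2 was thus called well above background in antagomir cells of 3 miRNAs and in no overexpressing cells. The call did not follow the signal alone: in the antagomir channel it was given at 7.45 for miR-629* and not at 9.88 for miR-181d. It therefore does not order these miRNAs by their HES2 level.

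The log2 ratio of HES2 on the miR-766 arrays was -4.23, -2.82 and -3.09, with a mean of -3.38 ± 0.75 (SD, n = 3). On the other 12 arrays it ranged from -2.49 to 0.09, without overlap. These ratios are shown as measured and have no test, since they divide by overexpressing signals that were not well above background. The scanner signal behind -4.23 was only 0.73 above its local background. As a floor, the overexpressing channel was set to the lowest signal called well above background on the array, or to its own signal where higher. On this floor, HES2 was 6.08-fold higher in cells with the miR-766 antagomir than in cells overexpressing miR-766. For miR-574-3p it was 1.58-fold higher and for miR-629* 1.53-fold. HES2 was left uncalled at overexpressing signals up to 10.03, so these folds are approximate and are not lower bounds. They also carry any dye effect of the probe. No fold is given for miR-181d and miR-565, where neither channel was well above background.

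As measured, with the same dim denominators, the miR-766 log2 ratio of HES2 differed by -2.37 (SE 0.46) from the mean of the other 4 miRNAs. After quantile normalization within each dye, the antagomir signal of the miR-766 arrays was 1.72 log2 units (SE 0.12) above the antagomir signal of the other arrays, and the overexpressing signal differed by -0.76 (SE 0.51), or by -0.49 with 75th percentile scaling. Over all probes tested, 0.511% had an antagomir signal on each of the 3 miR-766 arrays above the highest of the other 12. HES2 was chosen by these signals, so neither this share nor the standard errors above are a test of it. In the fit across all probes, 2.24% of all tested probes passed for miR-766, and no test of a member probe is read there. In the difference from the other miRNAs, 0.00638% of all tested probes passed for miR-766, and HES2 is again given without a test.

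The same pattern could be followed in the scanner values, before background subtraction and normalization. The mean antagomir signal of the HES2 spot was 82.4, 82.6 and 90.5 on the miR-766 arrays, over local backgrounds of 43, 44 and 44. On the other 12 arrays the mean antagomir signal was 57.4 to 62.8, over backgrounds of 35 to 49. The overexpressing channel gave 49.7 to 58.2 over backgrounds of 42 to 50 on all 15 arrays. The 3 antagomir values of miR-766 thus lay above each of the other HES2 readings in either channel, as the plot of HES2 by array shows. With normexp correction at an offset of 50 and loess, the log2 ratio was -0.62 and its difference from the other miRNAs -0.52, since the offset exceeds every processed signal of this probe.

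**Figure D1:**
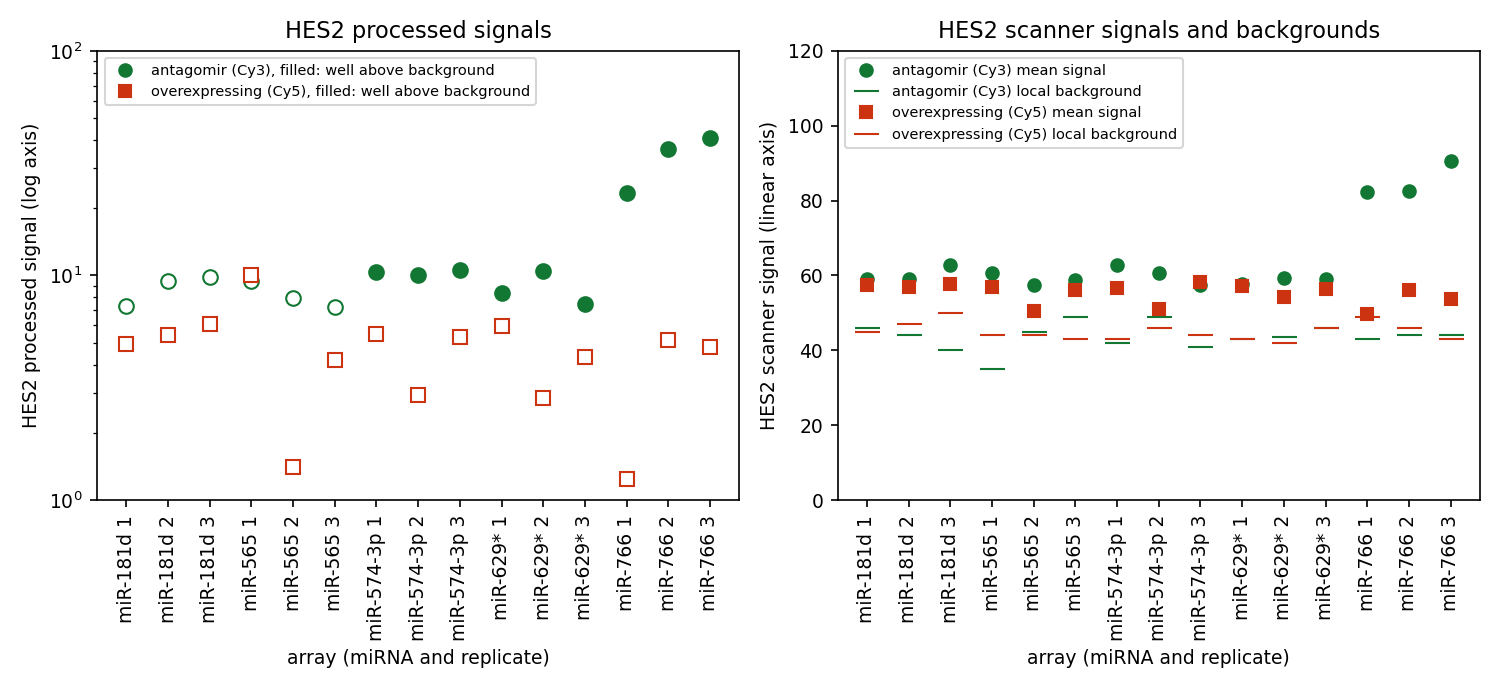
HES2 signals on the 15 arrays (x axis, miRNA and replicate), with circles for the antagomir channel and squares for the overexpressing channel. Left, processed signal on a log axis, filled where well above background; right, scanner mean signal and local background (dashes) on a linear axis. The 3 antagomir values of miR-766 (23.3 to 40.9 processed) lie above the other 12 (7.23 to 10.6), and no overexpressing value is well above background.

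For miR-574-3p and miR-629*, HES2 was well above background in antagomir cells but on 0 of 3 arrays in overexpressing cells. Their ratios too divide by undetected signals, and these arrays were part of the comparison that chose HES2, so no test of them is read. No test is read for miR-181d and miR-565, where HES2 was not well above background in either channel. The log2 ratio of HES2 was below 0 on 14 of the 15 arrays, replicate 1 of miR-565 being the exception. A probe that is dimmer in Cy5 than in Cy3 on every slide cannot be told apart from a lower level in overexpressing cells, because no dye was swapped.

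The probes nearest to HES2 in their log2 ratios over the 15 arrays were sought. The candidates were 27393 probes that carry a name and were well above background in the antagomir channel of all miR-766 arrays. The smallest root mean square differences from HES2 were 1.13 for LIN28, 1.27 for MIP, 1.28 for A_24_P8395, 1.28 for A_32_P101110 and 1.28 for HEPN1, against a median of 1.91 over the candidates. The SD of the HES2 ratios themselves was 1.20 over the 15 arrays, so even the nearest probes were not close to HES2. These are distances on the log2 scale, over arrays that share slides and dyes, and they include the miR-766 values that chose HES2. The overexpressing channel of these 5 probes was well above background on 0, 0, 2, 0 and 0 of the 3 miR-766 arrays, so their ratios too were mostly taken over undetected signals. LIN28 is an RNA-binding protein of stem cells that blocks let-7 maturation, and MIP is a water channel of the eye lens. On the miR-766 arrays the mean log2 ratio of LIN28 was -1.46 and the others lay between -1.59 and -1.15, each nearer to 0 than that of HES2.

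HES1, the repressor through which Notch holds back differentiation in many tissues, was measured by 3 probes that were well above background on 15 of 15 arrays in both channels. With A_23_P17998, the log2 ratio was 0.31, 0.28 and 0.26 for miR-181d, 0.74, 0.24 and 0.31 for miR-565 and 0.17, 0.18 and 0.26 for miR-574-3p. It was 0.04, 0.20 and 0.20 for miR-629* and 0.16, 0.12 and 0.18 for miR-766. The HES1 ratio was thus above 0 on 15 of 15 arrays. Because no dye was swapped, a higher HES1 level in overexpressing cells cannot be told apart from a probe that is brighter in Cy5. The signals behind these ratios were 760 to 1410 with a median of 1121 in the antagomir channel, and 870 to 2362 with a median of 1319 in the overexpressing channel. The top value, 2362, belongs to replicate 1 of miR-565, and the next highest overexpressing value was 1474.

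The second HES1 probe, A_24_P938293, gave log2 ratios of 0.16, 0.22 and 0.26 for miR-181d, 0.73, 0.23 and 0.28 for miR-565 and 0.18, 0.29 and 0.13 for miR-574-3p. For miR-629* it gave 0.18, 0.23 and 0.21, and for miR-766 0.23, 0.17 and 0.04, again above 0 on 15 of 15 arrays. The dim junction probe A_23_P6596 had antagomir signals of 14.9 to 34.5 and overexpressing signals of 21.6 to 64.9, and its log2 ratio was above 0 on 12 of 15 arrays. The 3 probes therefore agreed in direction for every miRNA, with means of 0.14 to 0.43, 0.15 to 0.41 and 0.05 to 0.54. Over 12 alternative settings the lowest miR-181d estimate was -0.03 for A_24_P938293 and -0.33 for A_23_P6596, while A_23_P17998 stayed above 0 in each of them for the 4 miRNAs other than miR-766.

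In the limma test across all probes, the HES1 ratio passed above 0 for miR-565 with both bright probes. These were A_23_P17998 (log2 0.43, SE 0.07, adjusted p = 0.0058) and A_24_P938293 (log2 0.41, SE 0.08, adjusted p = 0.0083). For miR-181d the ratio passed with A_23_P17998 (log2 0.28, SE 0.07, adjusted p = 0.043). These are ratios of 1.35, 1.33 and 1.22. They were the only member probes called, that is 1 of 10 tested for miR-181d, 2 of 10 for miR-565 and 0 of 10 for miR-574-3p and for miR-629*. Among all tested probes, 6.32%, 12.9%, 5.37% and 10.2% were called for these miRNAs in the same order, so the member counts lie near the background. At an unadjusted p under 0.05, the limma fit had 4, 6, 3 and 3 member probes. With the slide as a random block in limma none of the 3 calls held, the adjusted p being 0.65 for miR-181d and 0.071 and 0.19 for miR-565. On the slide of miR-181d, the only array of another miRNA was replicate 1 of miR-565. The miR-181d call was lost when any 1 of its arrays was left out.

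The fit was repeated without replicate 1 of miR-565, a choice made with its values known. HES1 then passed with both bright probes for all 4 of these miRNAs. The log2 ratios with A_23_P17998 were then 0.28 for miR-181d (adjusted p = 0.00012), 0.27 for miR-565 (adjusted p = 0.0012), 0.20 for miR-574-3p (adjusted p = 0.0011) and 0.14 for miR-629* (adjusted p = 0.0063). Called were 5 member probes for miR-181d (2 lower, 3 higher), 3 for miR-565 (1 lower, 2 higher), 3 for miR-574-3p (1 lower, 2 higher) and 5 for miR-629* (2 lower, 3 higher). HES2, with its undetected overexpressing channel, is 1 of the lower probes for miR-629* and the only lower probe for miR-565 and miR-574-3p. Nothing is read from HES2 for these 3 miRNAs, since its ratios divide by signals that were not well above background. The background rose too, to 27.8%, 15.9%, 22.2% and 34.7% of all tested probes, and to 18.6% for miR-766.

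**Figure D2:**
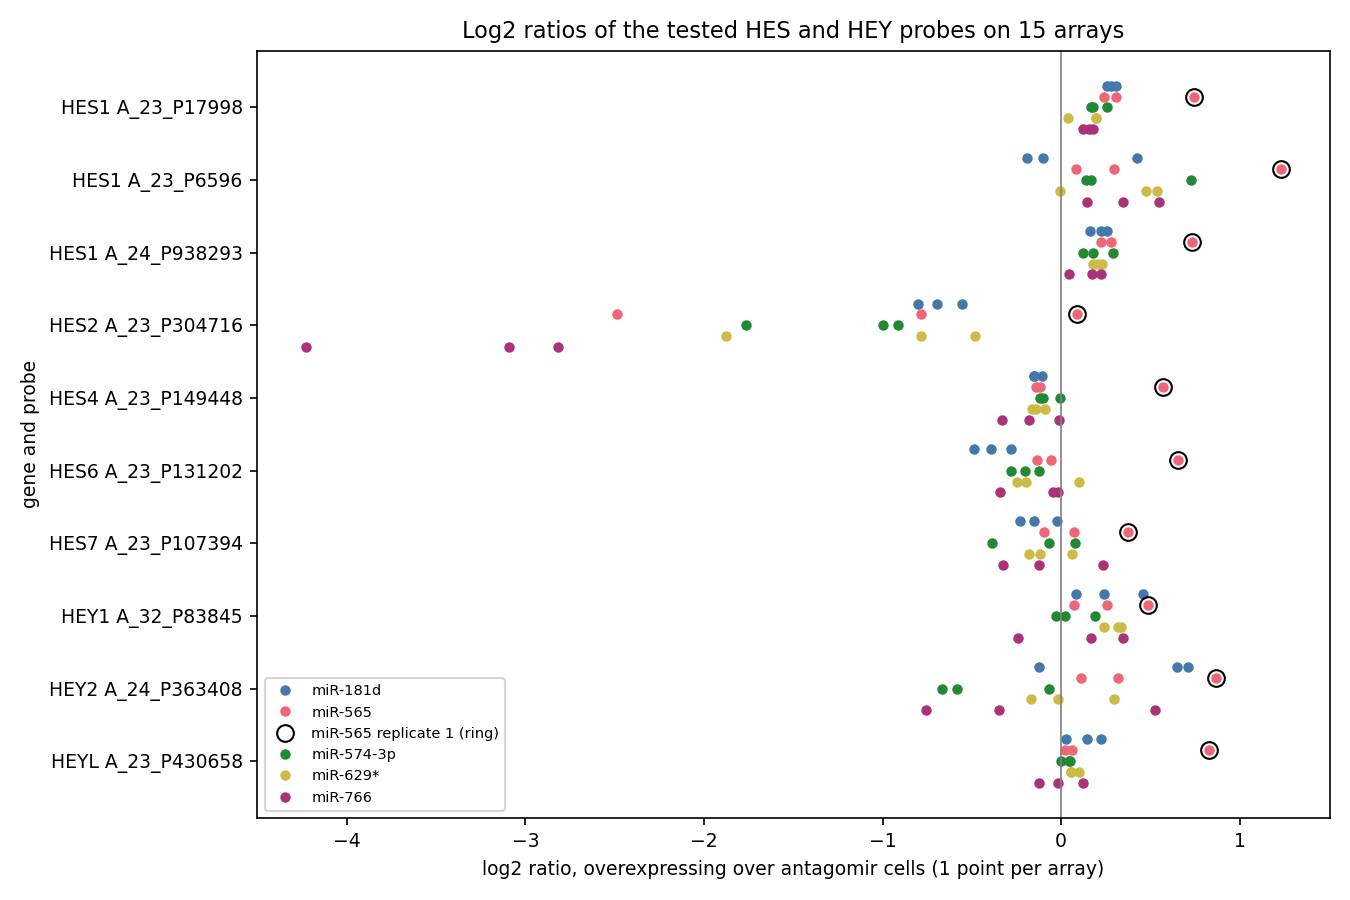
Log2 ratio (x axis, overexpressing over antagomir cells) of the 10 tested HES and HEY probes (y axis), with 1 point per array, colored by miRNA, and a ring on replicate 1 of miR-565. Both bright HES1 probes lie above 0 on all 15 arrays, HES2 reaches -4.23 to -2.82 for miR-766, over overexpressing signals not well above background, and the ringed array lies highest at all 10 probes.

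HES4, a relative of HES1, had antagomir signals of 1257 to 2029 and overexpressing signals of 1165 to 3018. Its log2 ratio was -0.11, -0.15 and -0.15 for miR-181d, 0.57, -0.14 and -0.12 for miR-565, and -0.01, -0.10 and -0.12 for miR-574-3p. For miR-629* it was -0.16, -0.14 and -0.09, and for miR-766 -0.18, -0.33 and -0.01. HES4 was thus below 0 on 14 of 15 arrays, and the exception was again replicate 1 of miR-565, whose overexpressing signal of 3018 compares with 1623 on the next array. None of the 4 tested miRNAs passed (adjusted p 0.46 to 0.78), and without that array HES4 passed for miR-181d (adjusted p = 0.039) and miR-629* (adjusted p = 0.043).

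HES6, which is known to oppose HES1 and to favor neuronal differentiation, had log2 ratios of -0.49, -0.39 and -0.28 for miR-181d, the lowest 3-array mean among the bright members (-0.39 ± 0.10, SD, n = 3). Its antagomir signals on these arrays were 220, 314 and 282 and its overexpressing signals 157, 239 and 233. The mean was -0.20 ± 0.08 for miR-574-3p, -0.11 ± 0.19 for miR-629* and -0.13 ± 0.18 for miR-766, and it was 0.15 ± 0.43 for miR-565. The miR-181d value did not pass with all arrays (adjusted p = 0.096) and passed without replicate 1 of miR-565 (adjusted p = 0.0029). Its difference from the other miRNAs was -0.31 (SE 0.14, adjusted p = 0.70).

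HES7, the oscillating repressor of the segmentation clock in the embryo, had antagomir signals of 59111 to 96637 and overexpressing signals of 54157 to 125176. Its log2 ratio was below 0 on 10 of 15 arrays, and the means of the 5 miRNAs lay between -0.13 and 0.12 with adjusted p values of 0.46 to 0.69 for the 4 that were tested. With normexp and loess its sign turned for miR-574-3p (0.03) and miR-629* (0.05). HES5, which is switched on by Notch in neural progenitors, was not well above background on any array in either channel. Its signals were 1.49 to 4.54 in antagomir cells and 1.12 to 5.27 in overexpressing cells, and no ratio is given. HES5 and the junction probe of HEY2 were the member probes that stayed out of the test, since they were well above background on fewer than 3 arrays, so 10 of the 12 were tested.

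**Figure D3:**
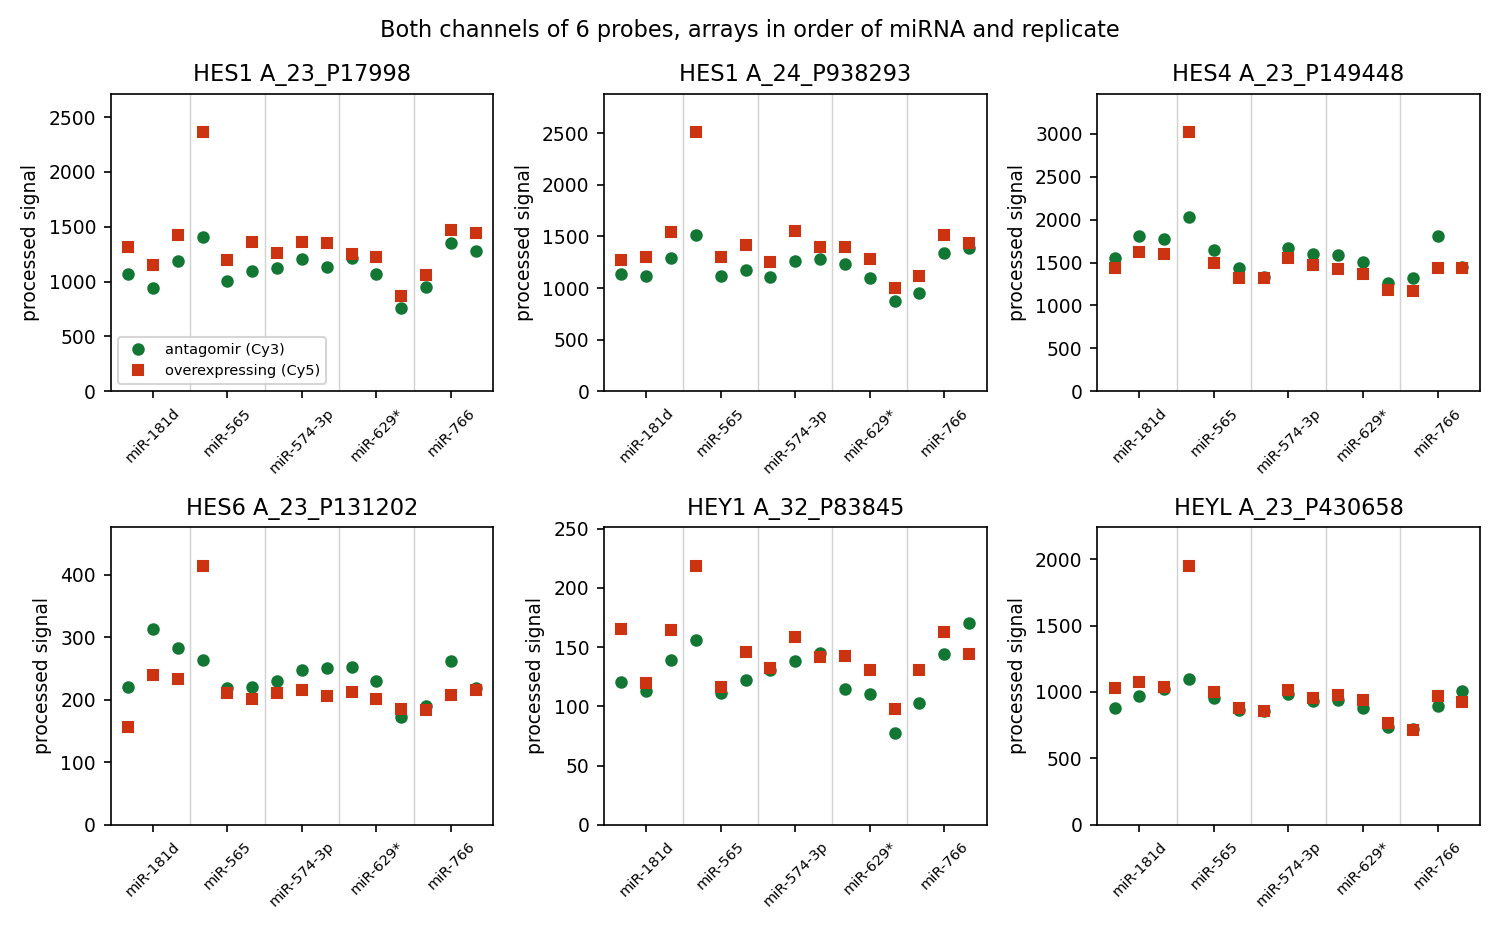
Processed signal (y axis, linear from 0) of 6 probes of HES1, HES4, HES6, HEY1 and HEYL in antagomir cells (circles) and overexpressing cells (squares), arrays in order of miRNA and replicate. The overexpressing value of replicate 1 of miR-565 is the highest in each panel, from 219 for HEY1 to 3018 for HES4.

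The HEY genes act beside the HES genes and are known from heart and vessel development. HEY1, read by A_32_P83845, had antagomir signals of 77.4 to 170 and overexpressing signals of 97.4 to 219, and its log2 ratio was above 0 on 13 of 15 arrays. The 3-array means were 0.26 ± 0.19 for miR-181d, 0.27 ± 0.21 for miR-565, 0.06 ± 0.12 for miR-574-3p, 0.30 ± 0.05 for miR-629* and 0.09 ± 0.30 for miR-766 (SD, n = 3). None passed among the 4 tested (adjusted p 0.11 to 0.85), and for miR-629*, whose 3 values were 0.32, 0.24 and 0.33, the adjusted p was 0.037 without replicate 1 of miR-565.

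HEYL had antagomir signals of 722 to 1099 and overexpressing signals of 713 to 1949. Its log2 ratio for miR-574-3p was -0.002, 0.05 and 0.04 on the 3 arrays and its mean 0.03 ± 0.03, so overexpressing and antagomir cells differed little. The largest single value was 0.83 on replicate 1 of miR-565, whose other replicates gave 0.06 and 0.02. HEYL did not pass for any of the 4 miRNAs (adjusted p 0.088 to 0.94), and without that array it passed for miR-181d (log2 0.13, adjusted p = 0.040).

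HEY2 was dim with both probes. A_24_P363408 had antagomir signals of 6.57 to 17.9 and overexpressing signals of 5.84 to 25.7, and A_23_P168351 had 2.28 to 8.82 and 4.33 to 12.6. For miR-574-3p, A_24_P363408 gave log2 ratios of -0.07, -0.67 and -0.58 and a mean of -0.44 ± 0.32 (SD, n = 3), while for miR-181d it gave 0.65, -0.13 and 0.71, so the sign differed between miRNAs and between replicates. No ratio is given for the junction probe, which was well above background on 0 of 15 arrays in the antagomir channel and on 2 in the overexpressing channel. The tested probe passed for none of the 4 miRNAs (adjusted p 0.22 to 0.95).

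A dye effect of a probe that is shared by all arrays cancels in the difference between 1 miRNA and the mean of the other 4. HES2 aside, 9 member probes were tested in this way, and 0 passed in limma for the 4 tested miRNAs (miR-181d first, then miR-565, then miR-574-3p, then miR-629*), against 1, 3, 1 and 0 at an unadjusted p under 0.05. Of all tested probes, 0%, 0.105%, 1.23% and 0.0542% passed. The HES1 difference was 0.05 (SE 0.08) for miR-181d and 0.24 (SE 0.08, adjusted p = 0.30) for miR-565 with A_23_P17998, so the higher HES1 ratio of these 2 miRNAs was not shown to differ from that of the others. The plot of fitted values shows the same, with HES1 right of 0 for each miRNA on the ratio scale and around 0 on the scale of differences.

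A comparison within 1 dye asks which of both transfections moved, although slide and miRNA are partly confounded in it. Among antagomir signals 0 of the 9 member probes passed in the 4 miRNAs tested, taken in the order used above (limma; 2, 0, 1 and 1 at an unadjusted p under 0.05), where 1.24%, 1.97%, 8.69% and 0.845% of all probes did. In the overexpressing channel 0 member probes passed as well (limma, with 0, 1, 0 and 0 at an unadjusted p under 0.05). As 0% of all probes passed there for each miRNA, that test could not single out a member. With A_23_P17998, HES1 stayed within -0.16 and 0.04 in the antagomir channel of these 4 miRNAs and within -0.11 and 0.20 in the overexpressing channel. For miR-565 minus miR-181d on slide 1, its difference was 0.16 in the antagomir and 0.58 in the overexpressing channel. There, miR-565 is replicate 1 alone, the array that stood apart. For miR-565 minus miR-574-3p (slide 2) the differences were -0.12 and -0.01, in the same order. For miR-574-3p minus miR-629* (slide 3) they were -0.04 and 0.07.

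The genes through which Notch reaches the HES and HEY genes were described from a list of 57, of which 56 were on the array and 52 were tested, with the brightest probe of each gene. Called were 5 genes for miR-181d, 4 for miR-565, 4 for miR-574-3p, 5 for miR-629* and 4 for miR-766, all higher in overexpressing cells and 0 lower, each of 52. Of all tested probes 6.32%, 12.9%, 5.37%, 10.2% and 2.24% were called in either direction, so several of these counts lie near or below the background. With the slide as a random block, 3 genes were called for miR-181d and 0 for each of the other miRNAs. As with the members, 0 of them passed in the difference from the other miRNAs. The median log2 ratio of the list was 0.07, 0.08, 0.01, 0.04 and 0.04 for these miRNAs, against 0.01, 0.03, 0.01, 0.03 and 0.01 over all tested probes. Without replicate 1 of miR-565, called were 23 genes for miR-181d (8 lower, 15 higher), 10 for miR-565 (4 lower, 6 higher), 15 for miR-574-3p (5 lower, 10 higher), 16 for miR-629* (3 lower, 13 higher) and 13 for miR-766 (4 lower, 9 higher), so that the absence of lower genes rests on that array. In that fit 27.8%, 15.9%, 22.2%, 34.7% and 18.6% of all probes were called.

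By role, the receptor NOTCH2 was called for all 5 miRNAs, with log2 ratios of 0.23 to 0.30 in the fit without the slide. The corepressor CTBP2 was called for all but miR-565, at 0.25 to 0.32, and the ligand JAG1 for miR-181d, miR-565 and miR-629*, at 0.14 to 0.16. ADAM10, the protease that makes the first activating cut in Notch, was called for miR-181d (0.48) and miR-629* (0.39), and NCSTN, a subunit of the gamma-secretase that makes the next cut, for miR-565 (0.25) and miR-574-3p (0.23). RBPJ itself passed for none, with log2 ratios of -0.36 to 0.05. All ratios share the dye layout, and the part of the dye in them was not tested.

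Relatives and partners of the HES proteins formed a second list of 17 genes, of which 15 were on the array and 14 were tested. Called were 0 genes for miR-181d and miR-766, 2 higher for miR-565 (BHLHE41 and NEUROG1), 1 lower for miR-574-3p (BHLHE40) and 1 lower for miR-629* (ID1, log2 -0.23, adjusted p = 0.014). With 12.9% of all probes called for miR-565, 5.37% for miR-574-3p and 10.2% for miR-629*, these counts of 14 are close to the background. BHLHE40, a repressor related to HES, was the 1 gene of both lists (52 and 14 tested) that passed in the ratio and in the difference from the other miRNAs. In the difference, 1.23% of all tested probes passed for miR-574-3p, so this count is close to the background. For miR-574-3p its antagomir signals were 1526, 1882 and 1669 and its overexpressing signals 1237, 1509 and 1431. Overexpressing cells were thus lower on all 3 arrays, with a log2 ratio of -0.28 (SE 0.06, adjusted p = 0.012) and a difference of -0.31 (SE 0.06, adjusted p = 0.033).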

How the data were processed

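RNA of A549 cells was hybridized by the authors to dual-color Agilent arrays and read with Feature Extraction 9.5.3.1, per the file headers. The deposited intensity values used here are the processed signals of both channels, which are background-subtracted and dye-normalized, and the scanner mean and background signals. The deposited log10 ratios of the scanner files, Cy5 over Cy3, were identical to the authors' series table (largest difference 0) and served as an alternative. Depth has no meaning for arrays, and 3 arrays per miRNA limit the precision.

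From the files, 1639 control spots on each array and 2296 spots flagged as outliers over all arrays were left out, and spots of a probe were averaged on the log2 scale. The log2 ratio of the processed signals was fitted with limma 3.58.1 in R 4.3.3, with all 15 arrays, 1 coefficient per miRNA and an intensity trend. P-values were adjusted by the Benjamini-Hochberg method over the probes that Feature Extraction called well above background, in 1 channel or the other, on 3 or more arrays. The difference is a contrast of 1 miRNA against the mean of the other 4. Channels were compared in the same way on log2 signals after quantile normalization within each dye. The HES2 folds on a floor set the dim channel to the lowest signal of any probe called well above background on that array, or to its own signal where higher. They can carry dye bias. The steps were tested on simulated data.

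The members and gene lists were chosen with earlier results of these data known. All member probes are named. Of the Notch and HES-related lists, genes passing both the ratio and the difference were to be named, and the other list genes named in the text were chosen after their values were seen. Probe positions are the NCBI36 positions in the files, and promoters are RefSeq sequences of GRCh38.p14. One gene of the marker lists is not reported here.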

Additional observations from a re-analysis of the deposited data

Results flagged for a closer look

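BHLHE40 passed for miR-574-3p in the difference from the other miRNAs, as did 1.23% of all tested probes. Its log2 ratio for miR-574-3p was -0.28, and it lay -0.31 (SE 0.06, adjusted p = 0.033, limma contrast) from the mean of the other 4 miRNAs, being lower in overexpressing cells on 3 of 3 arrays. Within each dye, set against the arrays of the other miRNAs, its antagomir signal was higher by 0.34 on the log2 scale (adjusted p = 0.00074, limma). Its overexpressing signal differed by 0.03 (adjusted p = 0.98, limma). Of all tested probes, 8.69% passed in the antagomir channel of miR-574-3p and 0% in its overexpressing channel, so the latter test could not single out a gene. Both channels make up the ratio by which BHLHE40 was picked, so these p-values are no further support for it. Which transfection moved was not settled by them.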

How the results depend on the processing

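The HES2 log2 ratio on the miR-766 arrays kept its sign under all alternatives run. It ranged from -3.66 to -2.95 when 1 of its arrays was left out, its difference from -2.65 to -1.95, its antagomir shift from 1.61 to 1.82 and its overexpressing shift from -1.001 to -0.31 (-0.49 with 75th percentile scaling and -0.51 with no scaling between arrays). Normexp with loess gave -0.62 for the ratio and -0.52 for the difference, the offset of 50 being above both signals. Counts and HES2 values did not change sign, but 13 of the 40 fitted member ratios of the 4 other miRNAs did under at least 1 of 12 alternatives, none of them called. HES2 is limited by signal over background in the overexpressing channel.

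Counts of called members and Notch genes were unstable. Called members for miR-181d (main count 1) were 2 with normexp and loess, 2 with median centring, 0 without the intensity trend, 0 with the slide as a random block, 3 with only the arrays of that miRNA and 0 to 0 when 1 of its arrays was left out. For miR-565 (main count 2) they were 0 with the slide block, 0 with only its own arrays and 3 to 4 with 1 array left out. For miR-574-3p (main count 0) they were 1 with normexp and loess, 2 with median centring and 4 with only its own arrays, and for miR-629* (main count 0) 1 with median centring and 3 with only its own arrays. Leaving out 1 array of either gave 0 to 0.

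Called Notch genes for miR-181d (main count 5) were 10 with median centring, 3 without the trend, 3 with the slide block, 10 with all probes tested and 0 to 1 with 1 array left out. For miR-565 (main count 4) they were 0 with the slide block, 0 with only its own arrays and 6 to 14 with 1 array left out. For miR-574-3p (main count 4) they were 7 with median centring, 1 without the trend, 0 with the slide block, 16 with only its own arrays and 0 to 1 with 1 array left out. For miR-629* (main count 5) they were 3 with median centring, 1 without the trend, 0 with the slide block, 11 with only its own arrays and 0 to 0 with 1 array left out. For miR-766 (main count 4) they were 1 without the trend, 0 with the slide block and 0 to 1 with 1 array left out.

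Without replicate 1 of miR-565, an alternative chosen after seeing the data, called members were 5 for miR-181d, 3 for miR-574-3p and 5 for miR-629*, and called Notch genes were 23 for miR-181d, 15 for miR-574-3p, 16 for miR-629* and 13 for miR-766. The cause of these changes was not tested.

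With the replicate number as a block, called members for miR-181d were 0, and called Notch genes were 3 for miR-181d and 2 for miR-574-3p. The numbers do not pair the samples: deviations from the miRNA means correlated at -0.395 to 0.511 (median 0.057) over 30 pairs with the same number and at -0.577 to 0.496 (median -0.046) over 60 pairs with different numbers.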
